A study of Drosophila melanogaster with 36 samples.

Results

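GstD2, GstD3, GstD4, GstD5, GstD6, GstD7 and GstD8 are 7 delta class glutathione S-transferase (GST) genes of Drosophila melanogaster. They were chosen by symbol, as every spot that the table of probe genes names GstD2 to GstD8, and they make up 7 of the 159 named genes on the arrays. In the RefSeq annotation of assembly Release 6 all 7 lie on chromosome arm 3R, side by side and in the order of their numbers, with no other gene between neighbours. Their NCBI gene identifiers run from 48335 for GstD2 to 48341 for GstD8, and each has 1 annotated transcript. GstD1 lies next to GstD2 with 1 gene between them, GstD9 and GstD10 follow beyond GstD1, and GstD11 lies beyond GstD8, again with 1 gene between them.

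GSTs join glutathione to electrophilic molecules, which makes them easier to excrete, and some also remove chlorine from insecticides or reduce peroxides. The delta and epsilon classes are the insect expansions of the family, and they are the classes most often named in insecticide metabolism. In the fly, phenobarbital acts as a general inducer of detoxification genes, and the transcription factor CncC, held in check by Keap1, is a known route by which GST genes are switched on. GstD1 is the fly delta GST known to act on DDT, and the transcript of GstD2 is known from earlier work on barbiturates. GstD3 encodes a protein that is shorter at its amino end than those of its neighbours, and no particular substrate is given here for the others.

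The study asked whether insecticides of several classes change the transcription of detoxification genes, with caffeine and phenobarbital as compounds known to do so. RNA of whole animals of the y cn bw sp strain was compared between an exposed pool and its own control pool for 9 exposures, each of 4 h, on 2-colour spotted arrays. Each pool joined RNA of 8 samples of 50 animals, 400 animals in all, and each pool pair was hybridised on 4 arrays, with the exposed pool in Cy5 on arrays 1 and 3 and in Cy3 on arrays 2 and 4. The 4 arrays are thus technical repeats of 1 pool pair, and a test over arrays compares 2 RNA pools and not cultures or animals.

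Feeding larvae of the 3rd instar, 4.5 days old, were kept for the 4 h on agar food that held the compound, and their controls on the same food without it. The caffeine dose was 1.5 mg/ml, and the larval phenobarbital dose was 10 mM. Diazinon, an organophosphate that blocks acetylcholinesterase, was given at 0.013%. Dicyclanil, an insect growth regulator, was given at 0.067%. Lufenuron, which blocks chitin formation, was given at 20 ppm, spinosad, which acts on nicotinic acetylcholine receptors, at 6e-05%, and nitenpyram, a neonicotinoid that acts on the same receptors, at 6 ppm. Adult males, 4 days past emergence, were kept in vials coated from 150 µl of acetone that held either 10 µg of DDT, which holds sodium channels open, or 10 µl of 1 M phenobarbital. Their controls had vials coated from acetone alone. The label of DDT array 1 gives a later age for the exposed males than the other DDT labels do.

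Array 4 of DDT adults and array 4 of phenobarbital adults held the same value in 1936 of 1936 spots, so both were left out of all results below. This left 34 arrays: 4 for each of the 7 larval exposures, and 3 for each of the 2 adult exposures, of which only array 2 has the exposed pool in Cy3. The direction of the deposited ratio is not in the labels. It was taken as Cy5 over Cy3 and is called likely, because it puts Cyp6a2, Cyp6a8 and Cyp6a9, P450 genes known to respond to phenobarbital, higher in both phenobarbital pools (log2 ratios of 1.24 to 4.12). If it were turned, each "higher" and "lower" below would swap. Arrays of the same dye orientation agreed across genes (r from 0.46 to 0.95 within exposures), while arrays of opposite orientation correlated at -0.86 to 0.66 once turned to exposed over control. That spread with dye orientation touches every value below, so arrays are given by number and dye.

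Each value given for a gene is a log2 ratio, exposed pool over control pool, centred on the array's median named gene. The files hold no signal levels, so no member's abundance can be set against another's, and fewer cells of a type and less RNA per cell cannot be told apart in whole animals. A gene was called higher or lower where limma's Benjamini-Hochberg adjusted p over the 159 genes was under 0.05 and the ratio was at least 1.5-fold, which is 0.58 on the log2 scale. Each member had 4 spots in 2 pairs, here named the lower-numbered and the higher-numbered pair. GstD2, GstD3, GstD4, GstD5 and GstD6 had a value in 136 of 136 spots over the 34 arrays. GstD7 lacked 16 values, 14 of them in the higher-numbered pair, and GstD8 lacked 9, all in that pair.

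Phenobarbital in larvae was compared with its control first, since it gave the widest range among the members. GstD2 rose most of the 7, GstD5 and GstD7 rose several-fold, GstD3, GstD4 and GstD6 rose less, and GstD8 did not pass the test. In all, 6 of the 7 members were called higher and 0 lower, where 22.6% of the 159 genes were called higher and 20.8% lower. The median log2 ratio was 1.47 over the members and -0.15 over all genes.

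GstD2 had log2 ratios of 5.50, 3.71, 5.51 and 3.92 on arrays 1 to 4. The 2 arrays with the exposed pool in Cy5 (1 and 3) lay above the 2 with it in Cy3, and all 4 lay far above 0. The fitted ratio over the 4 arrays was 4.66 ± 0.19 (SE), or 25.3-fold, with an adjusted p of 2.14e-18 by limma. It was the highest ratio among all 159 genes in this exposure. Here and below, an SE over arrays draws on the spread of all 34 arrays and counts arrays of the same dye orientation as separate repeats. With such arrays averaged first, the SE of GstD2 was 0.34 and its limma adjusted p 1.72e-07.

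GstD5 had log2 ratios of 3.36, 1.89, 3.45 and 1.78 on arrays 1 to 4, and its fitted ratio was 2.62 ± 0.22, or 6.14-fold (limma adjusted p 2.63e-11). The order by dye was that of GstD2, with the 2 Cy5 arrays higher. GstD7 had a fitted ratio of 2.64 ± 0.42, or 6.24-fold (limma adjusted p 3.80e-06), from log2 ratios of 2.62, 2.68, 1.89 and 3.38. Here the highest array was a Cy3 array, so GstD7 did not share the dye order of the other called members.

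GstD6 followed with 1.47 ± 0.20, or 2.78-fold, from log2 ratios of 2.11, 0.87, 2.20 and 0.71 on arrays 1 to 4. GstD4 gave 1.23 ± 0.19, or 2.34-fold, from 1.89, 0.57, 1.98 and 0.46. Both were above 0 on all 4 arrays and called by limma, with adjusted p of 2.35e-07 for GstD6 and 2.07e-06 for GstD4.

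GstD3 was called at 0.64 ± 0.18, or 1.56-fold (limma adjusted p 0.0038), but its arrays fell on both sides of 0. It read 1.43 and 1.57 on the Cy5 arrays 1 and 3, and -0.16 and -0.27 on the Cy3 arrays 2 and 4. With either array 1 or array 3 left out, its call was lost. GstD8 read -0.37, 0.33, -0.66 and 0.09, and its fitted ratio of -0.15 ± 0.23 had a 95% interval from -0.63 to 0.32.

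**Figure D1:**
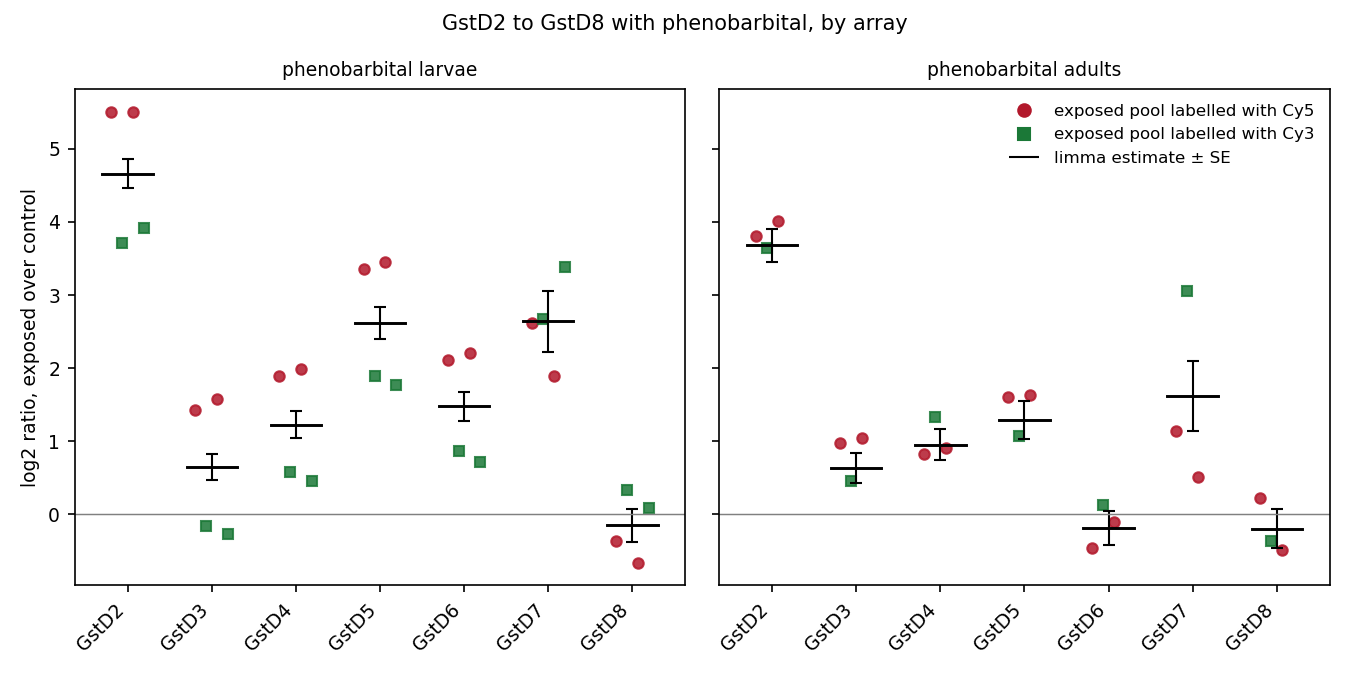
Log2 ratio of exposed over control for each member on each array with phenobarbital, in larvae (4 arrays) and adult males (3 arrays). Circles have the exposed pool in Cy5 and squares in Cy3, and the bars give the limma estimate ± SE. GstD2 lies above 3.6 on every array of both panels, while GstD3 in larvae lies on both sides of 0 by dye.

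Another choice of centre shifted all genes of this exposure together. The median over all genes was 0.08 with centring on all spots, 0.56 with centring on 4 control genes (Gapdh1, RpL10Aa, RpS20 and RpS21) and 0.63 for the values as deposited, against -0.15 here. The split of calls over all genes moved with it, from 36 higher and 33 lower to 41 and 13, 67 and 3, and 54 and 2. All 4 control genes were themselves called lower with the centring used here, at -0.63 to -0.89. GstD2, GstD4, GstD5 and GstD6 were called higher under all 16 alternative settings, GstD7 under 15 and GstD3 under 13.

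With phenobarbital in adult males, the members called higher were those called in larvae, without GstD6. GstD2 was again the highest of the 7, above the next member on 3 of 3 arrays. The order of the other called members was not firm, since GstD7 lay above GstD5 on 1 of 3 arrays and GstD4 above GstD3 on 1 of 3. Of the 7 members 5 were called higher and 0 lower, where 17.0% of the 159 genes were called higher and 1.26% lower. The median log2 ratio was 0.95 over the members and -0.07 over all genes.

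GstD2 read 3.81 and 4.02 on the Cy5 arrays 1 and 3 and 3.65 on the Cy3 array 2, so the dye difference seen in larvae was small here. Its fitted ratio was 3.68 ± 0.23 (SE, 3 arrays), or 12.8-fold (limma adjusted p 1.09e-13). GstD5 read 1.61, 1.08 and 1.63 on arrays 1 to 3, and its fitted ratio was 1.29 ± 0.26, or 2.44-fold (limma adjusted p 0.00032). Both genes kept their call with any 1 of the 3 arrays left out.

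GstD4 read 0.82, 1.33 and 0.91 on arrays 1 to 3, with a fitted ratio of 0.95 ± 0.22 (limma adjusted p 0.00118). GstD3 read 0.97, 0.45 and 1.04, with a fitted ratio of 0.63 ± 0.21 (limma adjusted p 0.0272). The call of GstD3 was lost in 2 of 3 fits that left out 1 array, and held in 12 of 16 alternative settings. GstD7 read 1.14, 3.05 and 0.51, with 1.62 ± 0.48 (limma adjusted p 0.0147), the widest spread of the called members. Without array 2, the only Cy3 array, 2 members stayed called, GstD2 and GstD5, and GstD7 read 0.89.

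GstD6 read -0.47, 0.13 and -0.11 on arrays 1 to 3, around 0. Its fitted ratio was -0.19 ± 0.23 with a 95% interval from -0.65 to 0.28. GstD8 read 0.22, -0.37 and -0.49, also on both sides of 0, with a fitted ratio of -0.20 ± 0.27 and an interval from -0.75 to 0.35. Its higher-numbered spots were measured in 1 of 6 cases here, at -2.33 with the exposed pool in Cy5. Its lower-numbered spots averaged 0.33 on the Cy5 arrays and -0.37 on the Cy3 array. Neither GstD6 nor GstD8 was called under any of the 16 alternative settings.

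Phenobarbital was the only compound given at both stages, so the larval and adult ratios were compared directly, by a contrast in the same fit. Route, dose form, sex and stage all differ between these 2 exposures and cannot be told apart. GstD2, GstD5 and GstD6 had higher ratios in larvae than in adult males, and the other 4 did not pass the test. Thus 3 of the 7 members were called, where 11.3% of the 159 genes were called higher in larvae and 6.29% lower.

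The largest difference among the members was that of GstD6, whose larval arrays (0.71 to 2.20) lay wholly above its adult arrays (-0.47 to 0.13). The difference was 1.66 ± 0.30 on the log2 scale (limma adjusted p 0.000103). GstD5 also had no overlap, with 1.78 to 3.45 in larvae and 1.08 to 1.63 in adults, and differed by 1.33 ± 0.34 (limma adjusted p 0.00418). For GstD2 the arrays did overlap, since the 2 larval Cy3 arrays (3.71 and 3.92) lay among the adult arrays (3.65 to 4.02), and the difference was 0.98 ± 0.30 (limma adjusted p 0.0159). The call of GstD2 was lost in 4 of 7 fits that left out 1 array, those without array 1 or array 3 of either stage, with adjusted p up to 0.101 by limma.

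The intervals of the members that were not called were wide. The larval minus adult difference was 0.01 for GstD3, with a 95% interval from -0.56 to 0.57, and 0.27 for GstD4, with one from -0.31 to 0.86. It was 0.05 for GstD8, with an interval from -0.68 to 0.77. GstD7 had 1.02, a point estimate in this fit as large as that of GstD2, but its interval ran from -0.28 to 2.33. Adults had 2 Cy5 arrays and 1 Cy3 array, so these differences also depend on the dye term that all exposures share. With both dye orientations weighted equally, they were 0.70 for GstD7, 0.88 for GstD2, 1.27 for GstD5 and 1.55 for GstD6. For GstD4 it was then 0.13, for GstD8 0.10 and for GstD3 -0.09.

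These stage differences depended on how the arrays were treated. With the arrays of each dye orientation averaged first, which leaves 2 values per exposure, 0 of the 7 members were called, and with the values as deposited also 0. Without a dye term only GstD6 stayed called. With all arrays scaled to the same spread, the difference of GstD2 turned to -1.32 and was called lower, that of GstD5 shrank to 0.06, and that of GstD6 was 1.18 and still called. The direction for GstD2 therefore depends on the scaling, while GstD6 was called in 14 of 16 alternative settings. Over all genes the split of calls was 18 higher and 10 lower, against 19 and 15 with centring on all spots, 31 and 5 on the control genes, and 8 and 2 as deposited.

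**Figure D2:**
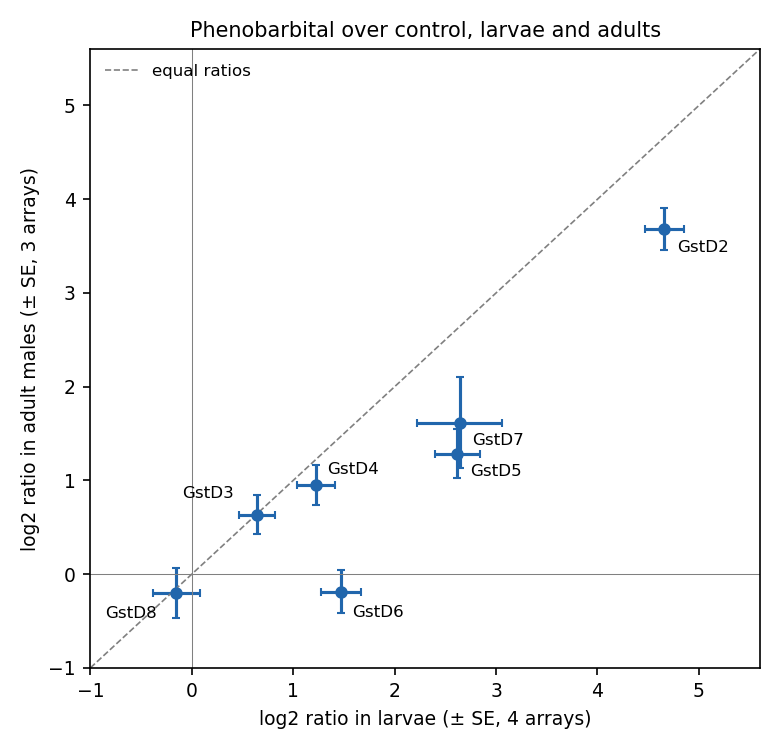
Fitted log2 ratio of phenobarbital over control for each member in adult males (vertical, ± SE, 3 arrays) against larvae (horizontal, ± SE, 4 arrays), with a dashed line of equal ratios. GstD6 (1.47 in larvae, -0.19 in adults) and GstD5 (2.62 and 1.29) lie farthest below the line, and GstD3 (0.64 and 0.63) lies on it.

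GstD7 and GstD8 differed from the other 5 in how well their spots agreed. Over all arrays the lower-numbered and the higher-numbered pair of spots differed on average by 1.55 for GstD7 and 1.23 for GstD8 on the log2 scale, against a median of 0.70 over the 155 genes with 4 spots. The same measure was 0.17 for GstD3 and GstD5, 0.23 for GstD2, 0.44 for GstD4 and 0.53 for GstD6. The reason was not tested, and the probe sequences of these close relatives were not used here, so how far a spot also takes up RNA of a neighbour was not tested either.

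The call of GstD7 rested on its lower-numbered spots. With phenobarbital in larvae these gave a mean of 3.67 over both dye orientations, from 3.20 to 4.20 in 8 of 8 values, while the higher-numbered spots gave 1.30, from -1.72 to 2.91 in 6 of 8 values. In adults the lower-numbered spots gave 3.09 and the higher-numbered spots -0.13, from 4 of 6 values. Fitted from the higher-numbered spots alone, GstD7 was called in neither stage, and its fitted ratio in adults turned to -0.39.

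The near-zero ratio of GstD8 was an average over spots that moved apart with the dye. With phenobarbital in larvae its lower-numbered spots averaged 0.65 on the Cy5 arrays and -0.63 on the Cy3 arrays, while its higher-numbered spots averaged -1.68 and 1.05. The dye order was thus opposite in the 2 pairs. GstD6 showed a milder form in adults, where its higher-numbered spots averaged -0.59 on the Cy5 arrays and 0.44 on the Cy3 array, and its lower-numbered spots 0.01 and -0.18. Averaged over both orientations, the 2 pairs of GstD6 gave nearly the same ratio there, -0.09 and -0.07.

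**Figure D3:**
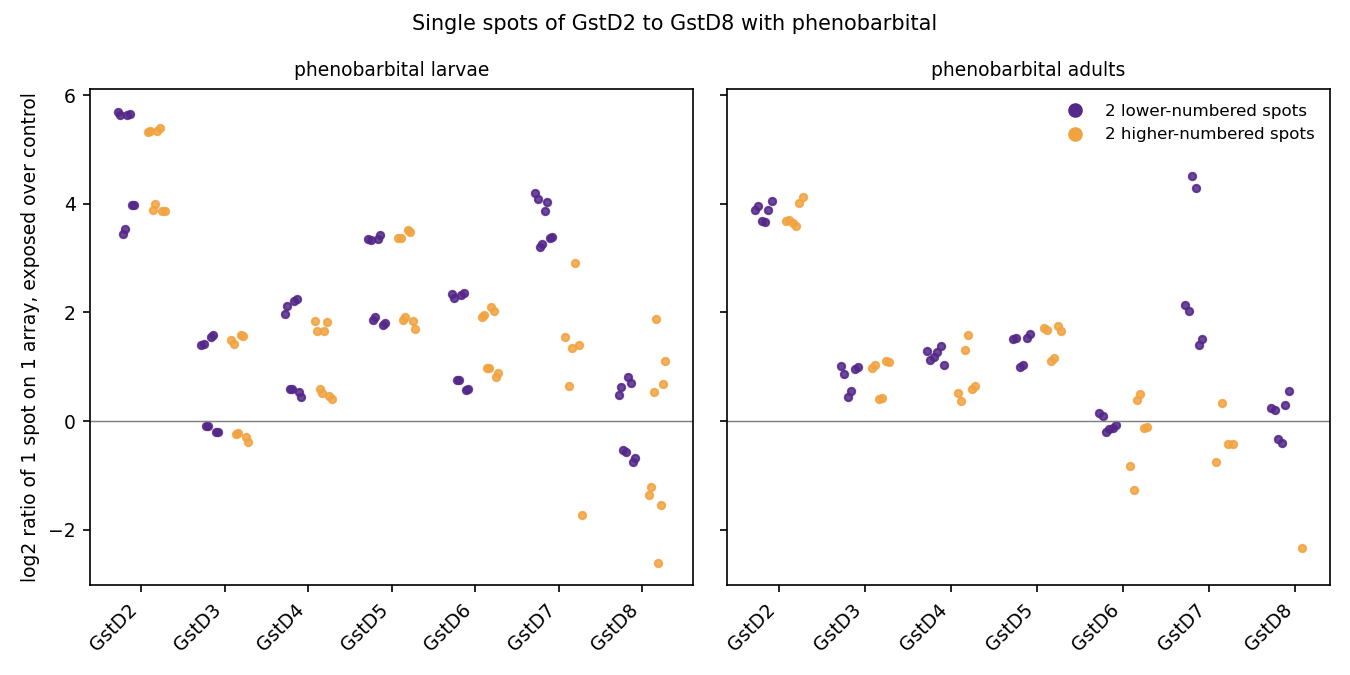
Log2 ratio of exposed over control of every measured spot of each member on every array with phenobarbital, in larvae and adult males, coloured by pair. The 2 pairs of GstD2, GstD3 and GstD5 lie together, while the higher-numbered spots of GstD7 lie below its lower-numbered spots (means of 1.30 and 3.67 in larvae).

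To take the pool pair and not the array as the replicate, the 2 phenobarbital exposures were compared with the 7 others over 9 pool pairs, with stage as a term. The error of this fit is the spread between pool pairs, and the 7 others are 7 different compounds. GstD2, GstD4, GstD5 and GstD7 were called higher with phenobarbital, 4 of 7 members, where 17.6% of the 159 genes were called higher and 8.18% lower. The difference was 3.72 ± 0.41 for GstD2 (limma adjusted p 0.00069) and 2.23 ± 0.32 for GstD7 (limma adjusted p 0.00172). It was 1.73 ± 0.36 for GstD5 and 0.91 ± 0.19 for GstD4, both with a limma adjusted p of 0.00879. GstD3 (0.49 ± 0.28), GstD6 (0.69 ± 0.37) and GstD8 (-0.54 ± 0.25) were not called. Under alternative settings the call held in 8 of 8 for GstD2 and GstD5, in 7 for GstD4 and in 6 for GstD7. Scaling to the same spread removed it for GstD4 and GstD7, and the higher-numbered spots alone removed it for GstD7. GstD3 was called in 2 of the 8, GstD6 in 1 and GstD8 in 0.

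For GstD2 the 2 phenobarbital pool pairs stood at 4.66 and 3.78, and the 7 others between -0.24 and 1.23, with no overlap. For GstD4 they stood at 1.23 and 1.10 against 0.03 to 0.42 in the others, and for GstD5 at 2.62 and 1.35 against -0.15 to 0.87. Without the larval phenobarbital pair, the comparison is 1 adult phenobarbital pair against 1 DDT pair, with the error taken from the larval pairs on the assumption that adults vary like them. There GstD2 differed by 2.55, GstD7 by 1.80, GstD4 by 0.69 and GstD5 by 0.48, each less than over all 9 pairs. GstD3 differed by 0.38, GstD6 by -0.53 and GstD8 by -1.25. The value of GstD8 draws on higher-numbered spots measured in 1 of 6 cases with adult phenobarbital (-2.33) and 3 of 6 with DDT. Its lower-numbered spots averaged -0.02 with adult phenobarbital and 0.47 with DDT. Over the same 9 pool pairs, 0 of the 7 members and 0 of the 159 genes were called between adults and larvae by limma, with 1 member and 20 genes at an unadjusted p under 0.05. Without the DDT pair the adult side is the phenobarbital pair alone. There the adult minus larval difference was -1.27 for GstD5 and -1.55 for GstD6. It was -0.88 for GstD2, -0.70 for GstD7, -0.13 for GstD4, -0.10 for GstD8 and 0.09 for GstD3.

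**Figure D4:**
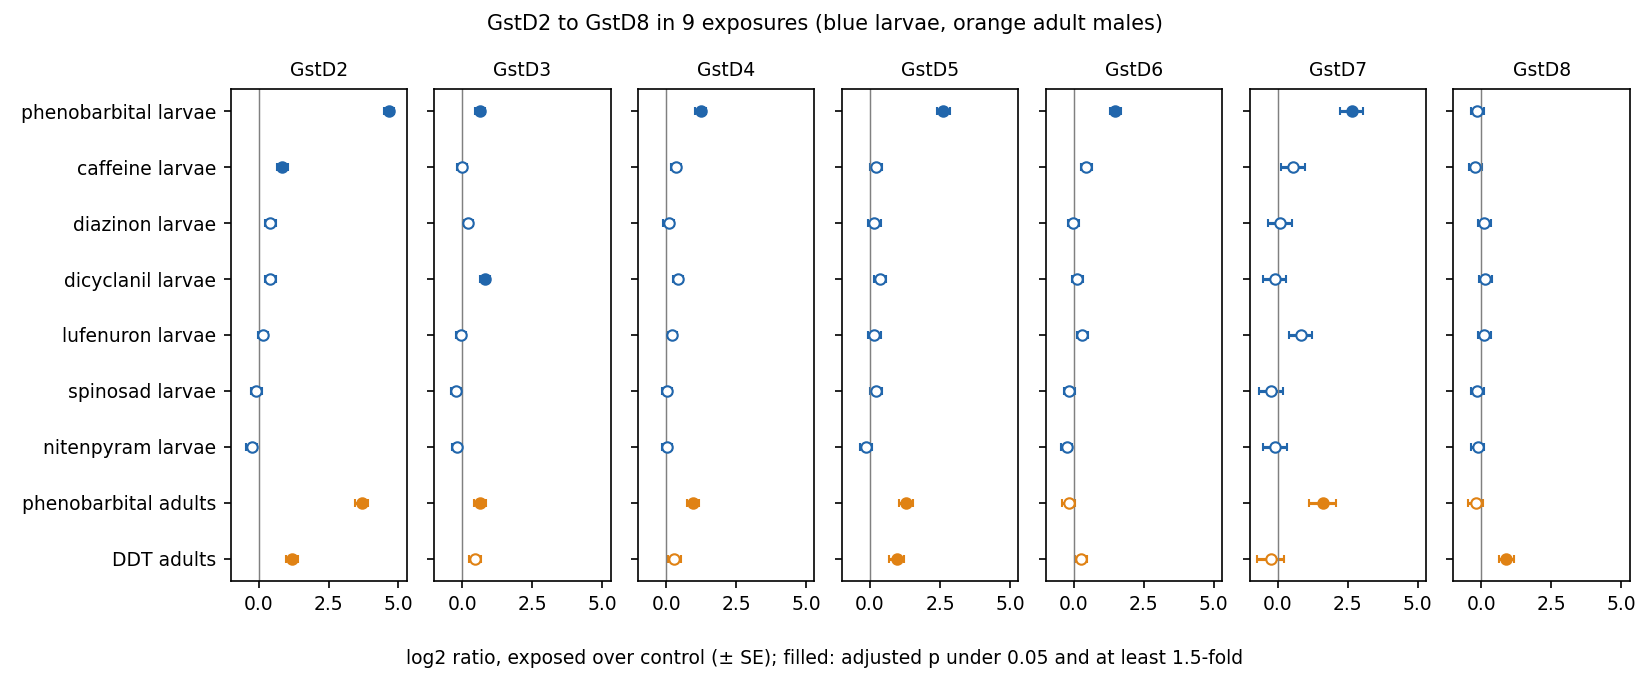
Fitted log2 ratio of exposed over control (± SE) of each member in the 9 exposures, larvae in blue (4 arrays each) and adult males in orange (3 arrays each). Filled points passed the call of an adjusted p under 0.05 and at least 1.5-fold, and GstD2 with phenobarbital (4.66 in larvae, 3.68 in adults) lies farthest from 0.

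Caffeine, the other compound given as a known inducer in larvae, called only GstD2 among the members. That is 1 of 7 members, where 12.6% of the 159 genes were called higher and 5.03% lower. GstD2 read 1.49 and 1.41 on the Cy5 arrays 1 and 3, and 0.28 and 0.24 on the Cy3 arrays 2 and 4. All 4 lay above 0, with a gap between the dyes larger than the fitted ratio of 0.86 ± 0.19, or 1.81-fold (limma adjusted p 0.00125).

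The other members with caffeine ranged from -0.22 for GstD8 to 0.54 for GstD7, and the median over the 7 was 0.35, against -0.03 over all genes. GstD6, at 0.44 ± 0.20, was above 0 on all 4 arrays (0.65, 0.32, 0.47 and 0.31), with an adjusted p of 0.127 by limma. GstD3 was 0.00 ± 0.18, with both Cy5 arrays above 0 (0.53 and 0.46) and both Cy3 arrays below (-0.40 and -0.61). The count of called members rose to 2 with centring on all spots and to 4 with centring on the 4 control genes, which moved the median of all genes to 0.21 and 0.42. Over all genes the split moved from 20 higher and 8 lower to 27 and 2, and 46 and 1, with 23 and 0 for the values as deposited. With arrays of each dye orientation averaged first, GstD2 was not called.

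DDT in adult males gave 3 called members, GstD2, GstD5 and GstD8, all higher. The share is 3 of 7, where 4.40% of the 159 genes were called higher and 1.89% lower. The median over the members was 0.45, against 0.03 over all genes. GstD2 read 1.65 and 1.44 on the Cy5 arrays 1 and 3 and 0.91 on the Cy3 array 2, all above 0. Its fitted ratio was 1.19 ± 0.23 (SE, 3 arrays), or 2.28-fold (limma adjusted p 0.00207), the highest of all 159 genes in this exposure.

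GstD5 read 1.52 and 1.62 on the Cy5 arrays and 0.16 on the Cy3 array, with a fitted ratio of 0.95 ± 0.26, or 1.93-fold (limma adjusted p 0.0274). GstD8 read 1.20 and 0.06 on the Cy5 arrays and 1.37 on the Cy3 array, with 0.89 ± 0.27, or 1.85-fold (limma adjusted p 0.0398). Array 3 of GstD8 thus lay near 0 and apart from its other 2 arrays. GstD2 kept its call with any 1 array left out, while GstD5 was called only without array 2, and GstD8 only without array 3.

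The DDT value of GstD8 came from spots that disagreed. Its lower-numbered spots averaged 1.31 on the Cy5 arrays and -0.37 on the Cy3 array, and its higher-numbered spots, measured in 3 of 6 cases, -2.64 and 3.11. Under alternative settings the call held in 4 of 16 for GstD8, in 9 of 16 for GstD5 and in 12 of 16 for GstD2. None of the 3 was called when arrays of each dye orientation were averaged first. Over all genes the split of calls for DDT went from 7 higher and 3 lower to 5 and 5 with centring on all spots and to 4 and 5 with centring on the control genes, and to 0 and 0 for the values as deposited.

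The other 4 members with DDT were not called. GstD3 (0.45), GstD4 (0.30) and GstD6 (0.26) were above 0 in the fit. GstD7 read -1.40 and -0.88 on the Cy5 arrays and 1.41 on the Cy3 array, with a fitted ratio of -0.24 ± 0.48 and an interval from -1.23 to 0.75. GstD1, the neighbour known for its action on DDT, read 1.42, 0.01 and 1.48 on arrays 1 to 3 and was called at 0.77 ± 0.24 (limma adjusted p 0.0491).

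The 5 larval insecticides gave 35 values for the 7 members, and 1 of the 35 was called. The values ran from -0.26 for GstD6 with nitenpyram to 0.82 for GstD7 with lufenuron. Of the 35 intervals 31 took in 0, and 33 had an upper bound under 2-fold. The highest upper bound was 1.67, or 3.19-fold, for GstD7 with lufenuron, and among the other members it was 1.17.

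The called value was GstD3 with dicyclanil, 1 of 7 members, where 1.26% of the 159 genes were called higher and 0% lower. GstD3 read 1.09 and 1.19 on the Cy5 arrays 1 and 3 and 0.52 and 0.41 on the Cy3 arrays 2 and 4, all 4 above 0. Its fitted ratio was 0.80 ± 0.18, or 1.74-fold (limma adjusted p 0.00922). The call was lost without array 2 or without array 4, and held in 12 of 16 alternative settings. It was not called with arrays of each dye orientation averaged first.

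GstD2, GstD4 and GstD5 were also above 0 on all 4 dicyclanil arrays, at fitted ratios of 0.42, 0.42 and 0.36, and were not called. GstD2 ranged from 0.15 to 0.68, GstD4 from 0.19 to 0.74 and GstD5 from 0.19 to 0.58 over the arrays. With all arrays scaled to the same spread, 4 members were called with dicyclanil. The share of all genes called was not counted under that setting, so these 4 cannot be set against it. GstD8 varied least, from 0.06 to 0.18, around a ratio of 0.14 ± 0.23, an SE that draws on the spread in all exposures.

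Diazinon called 0 of 7 members and 0% of genes in either direction. Its members gave the plainest dye pattern, with all 7 above 0 on both Cy5 arrays and below 0 on both Cy3 arrays. GstD2 read 1.02 and 1.10 against -0.16 and -0.31, which averaged to 0.41 ± 0.19, the highest of the 7. It was the 1 member at an unadjusted p under 0.05 in limma, with an adjusted p of 0.987. Over all 159 genes, 2 were under that unadjusted threshold.

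Lufenuron called 0 of 7 members and 0% of genes. GstD7 read 1.15 and 1.68 on the Cy5 arrays and 0.61 and -0.16 on the Cy3 arrays, with 0.82 ± 0.42 (limma adjusted p 0.986). It was called under 2 of the 16 alternative settings, a dye term for each exposure (0.82) and arrays scaled to the same spread (1.58). Its higher-numbered spots, measured in 5 of 8 cases, ran from -1.45 to 4.41, while its lower-numbered spots ran from 0.38 to 0.71. The lower-numbered spots thus agreed on a ratio of 0.55. The other 6 members lay between -0.05 and 0.30, and 0 members and 1 of the 159 genes had an unadjusted p under 0.05 in limma.

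Spinosad called 0 of 7 members and 0% of genes. The members lay between -0.24 for GstD7 and 0.22 for GstD5, with a median of -0.15. GstD6 was below 0 on all 4 arrays, from -0.22 to -0.10, with a ratio of -0.17 ± 0.20. Nitenpyram called 0 of 7 members, where 0.629% of the 159 genes were called higher and 0% lower, and its members lay between -0.26 and 0.04. For both compounds 0 members had an unadjusted p under 0.05 in limma, against 4 genes with spinosad and 9 with nitenpyram over the whole array.

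With nitenpyram the dye split was wide and ran in opposite ways within the cluster. GstD5 read 0.80 and 1.19 on the Cy5 arrays and -1.17 and -1.42 on the Cy3 arrays, and GstD2 and GstD3 were split the same way. GstD7 read -0.92 and -1.38 on the Cy5 arrays and 0.42 and 1.50 on the Cy3 arrays, and GstD8 was split that way too. GstD4, between -0.14 and 0.39, was split least as an average of its spots. Its lower-numbered spots averaged 0.81 on the Cy5 arrays and -0.88 on the Cy3 arrays, and its higher-numbered spots -0.42 and 0.65, so 2 opposite splits lay behind that average. All 7 averaged close to 0 over the 4 arrays, with SE of 0.18 to 0.42.

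**Figure D5:**
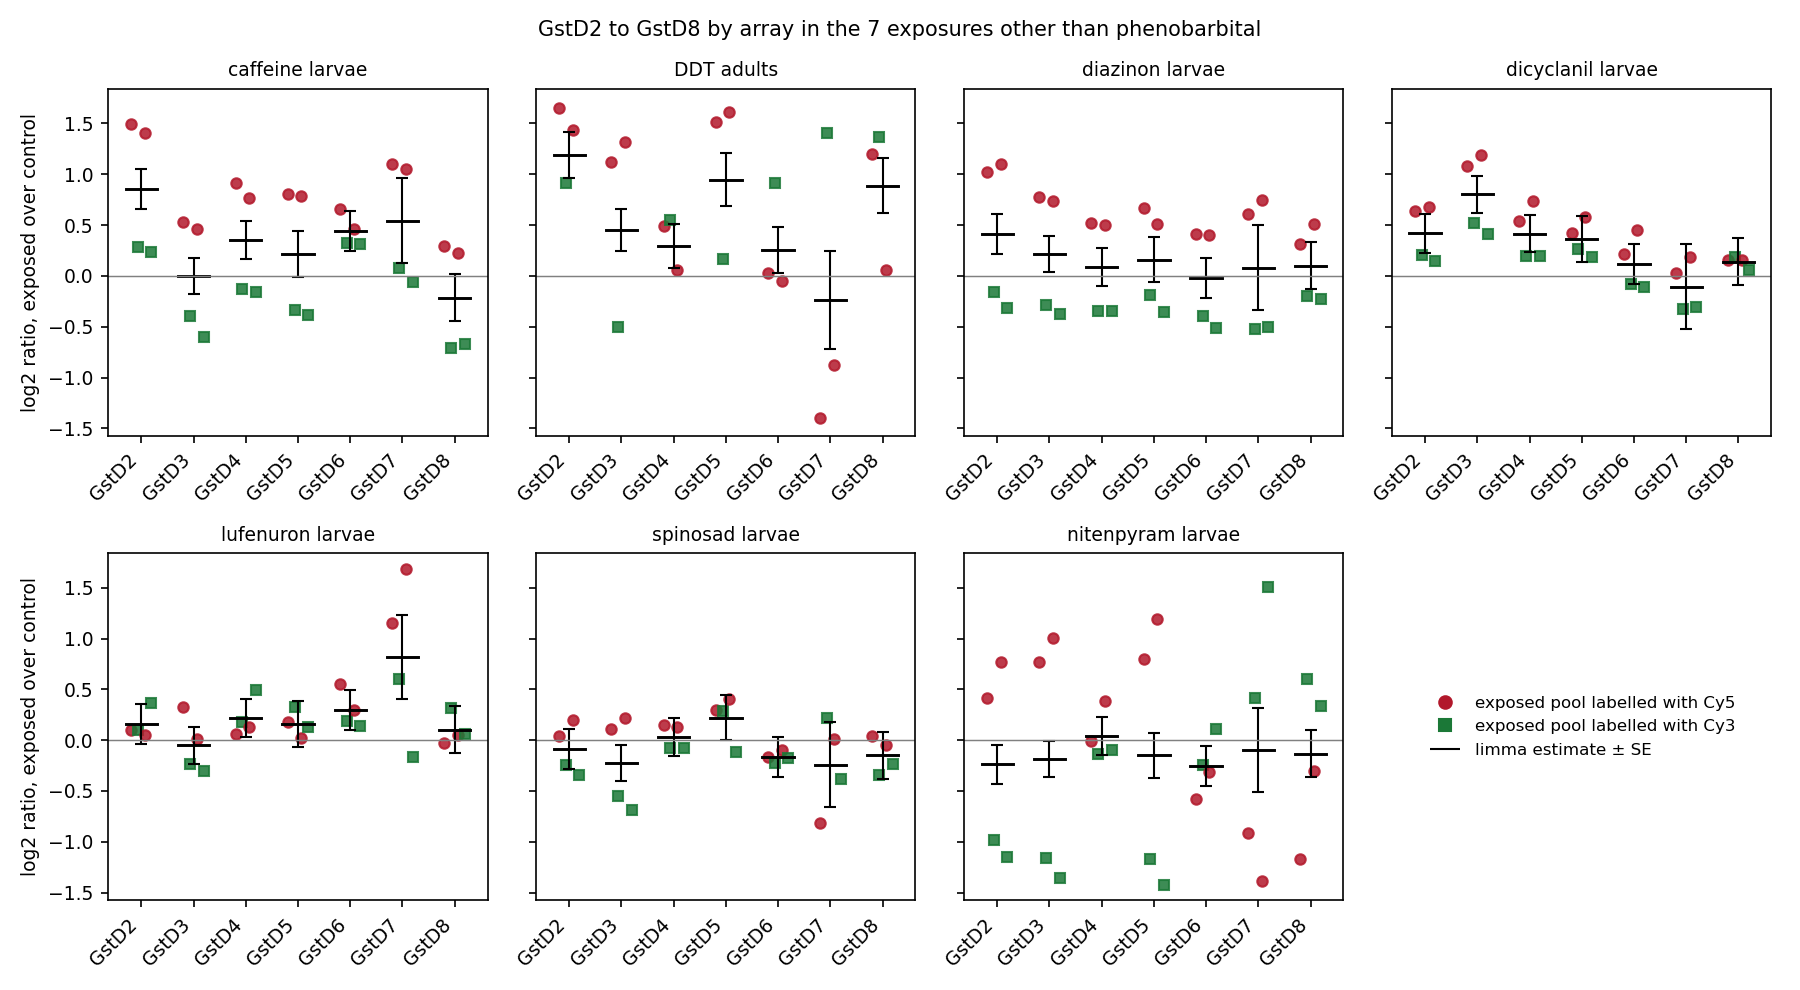
Log2 ratio of exposed over control of each member on each array in the 7 exposures other than phenobarbital (4 arrays each, 3 for DDT). Circles have the exposed pool in Cy5 and squares in Cy3, with the limma estimate ± SE. With diazinon all circles lie above 0 and all squares below, and with DDT GstD2 lies above 0 on all 3 arrays.

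The remaining delta GSTs next to this row did not follow GstD2 in size, but with phenobarbital some overlapped the lower members. GstD10 in larvae lay above GstD3, and GstD1 in adults lay above GstD3 and GstD4. GstD9 and GstD11 lay below GstD3 at both stages. With phenobarbital in larvae 1 of the 4 was called higher, GstD10 at 1.03 ± 0.18, and 1 lower, GstD11 at -0.97 ± 0.21, whose Cy5 arrays read -2.24 and -2.56 and Cy3 arrays 0.18 and 0.75. GstD1 stood at 0.54 ± 0.21 and GstD9 at 0.26 ± 0.18, neither called. In adults GstD1 was the 1 called, at 1.22 ± 0.24, with 1.63, 0.98 and 1.65 on arrays 1 to 3, while GstD10 stood at 0.33 ± 0.21. The larval and adult ratios of GstD1 differed by -0.68 ± 0.32 (limma adjusted p 0.155), so that stage difference was not called.

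Among 11 measured epsilon GSTs, 1 was called higher and 5 lower with phenobarbital in larvae, and 4 higher and 0 lower in adults. GstE3 was the epsilon GST called higher at both stages, at 2.57 ± 0.21 in larvae and 2.32 ± 0.25 in adults, and with caffeine at 1.50 ± 0.21. GstE1 was called higher with caffeine (1.22), dicyclanil (0.91), phenobarbital in adults (1.11) and DDT (0.77), so it shared the exposures in which GstD2 or GstD3 was called other than larval phenobarbital. GstE13 was called lower with phenobarbital in larvae (-0.89) and with caffeine (-0.70). GstE8 was called lower with phenobarbital in larvae (-0.70 ± 0.18) and higher in adults (1.08 ± 0.20), with a difference of -1.78 ± 0.27 (limma adjusted p 8.70e-06), opposite in sign to that of the called members. These lower calls hold for the centring used here, under which the larval median was -0.15. Of the 12 measured GSTs of other classes, 2 were called higher and 2 lower with phenobarbital in larvae, and 0 in adults. GstT4, of the theta class, was called with phenobarbital in larvae (1.59 ± 0.21) and not in adults (-0.09 ± 0.24), with a difference of 1.68 ± 0.32 (limma adjusted p 0.000146), close to the 1.66 ± 0.30 of GstD6. With DDT it was called at 0.84 ± 0.24.

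Cyp4g1, a P450 of the oenocytes and the only marker of a particular cell type used here, was at -0.95 ± 0.23 with phenobarbital in larvae, where it was called lower, and at -0.10 ± 0.26 in adults. Its part in the members' ratios was not tested. Of 3 measured small heat shock genes, which respond to general stress, 1 was called higher and 1 lower with phenobarbital in larvae, and 0 were called in adults. Their part was not tested either.

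Across the 9 pool pairs several members had like ratios. As a description over 9 values that share 2 far phenobarbital points, GstD2 correlated with GstD4 at r = 0.98, with GstD5 at 0.95 and with GstD7 at 0.94. GstD3 and GstD6 were less alike, at 0.38. GstD8 correlated with the other 6 at -0.33 to 0.12. Over the 7 exposures without phenobarbital the picture changed for both GstD7 and GstD8. There GstD2 had r = 0.80 with GstD4 and 0.83 with GstD5, but 0.29 with GstD7, and GstD7 had -0.16 with GstD3. GstD8 had 0.88 with GstD5, 0.68 with GstD2 and 0.48 with GstD3, but 0.00 with GstD7, so its low values with the first 3 came with the phenobarbital exposures included. These 7 values share a far DDT point for GstD8. It stood at 1.00 with DDT, from spots that disagreed, and between -0.22 and 0.14 in the larval exposures. GstD2 (1.23) and GstD5 (0.87) were also highest with DDT among these 7.

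The genes outside the cluster whose 9 ratios were most like the mean of the members were all P450s: Cyp4p1 (r = 0.94), Cyp4e3 (0.94), Cyp6a23 (0.93), Cyp6a9 (0.92) and Cyp4e2 (0.90). For GstD2 they were Cyp4p1 (0.97), Cyp4e2 (0.94), Cyp12c1 (0.94), Cyp6a21 (0.94) and GstE3 (0.93). Without phenobarbital the r of these genes lay between 0.34 and 0.82 over 7 exposures. Cyp6a21 came close to GstD2 in size with larval phenobarbital, at 4.37 against 4.66, and Cyp12c1 had nearly the same ratio in larvae (1.53) and adults (1.56).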

How the data were processed

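RNA ratios of 36 arrays were deposited by the authors as log2 ratios of 2 dyes for 1936 spots. The processing notes of the submitters name limma, without version or role; background handling and normalization are not given in the sources used here. Empty values (8543) and a ceiling value, log2 of 1e+05 (2301), were taken as missing. The probe table names 1 gene for 656 spots, several for 8 and none for 1272. Spots of a gene were averaged, arrays centred on their median named gene and ratios turned to exposed over control. Whether any exposure had been turned before deposit was checked on 668 unnamed spots: their mean ratios as turned here correlated at 0.895 to 0.939 with those of larval phenobarbital in the other 8 exposures.

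Limma 3.58.1 (R 4.3.3) fitted 1 coefficient per exposure and a common dye term to all 34 arrays; the pool-level fit used 9 pool means, dyes weighted equally. Fits were tested on simulated data in which the dye effect of a gene was the same in all exposures. That test does not cover dye effects that differ between exposures. No signal strength was available, so the number of arrays limits the precision. In the array-level fit p-values measure the spread between technical repeats. In the pool-level fit they measure the spread between pool pairs of different compounds. Array numbers were checked for pairing: same-numbered arrays of different exposures deviated together at a mean r of 0.42, as did arrays of other number and the same dye (0.42), and at 0.048 once dye was removed, so numbers were not taken as pairs.

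Named genes are the 7 members, GstD1 and GstD9 to GstD11, other GSTs and small heat shock genes called in at least 2 exposures, direction, control and marker genes, and the 5 most correlated genes for the member mean and for GstD2. GstE2, GstE6, GstE7, GstO4 and Hsp23 had no named spot. Members and lists were chosen with earlier results of these data known. Figures used Python 3.11.15, pandas 2.3.3 and matplotlib 3.10.9. Alternatives were other centrings, equal spread between arrays, median over spots, at least 3 spots, the ceiling kept, no or separate dye terms, a replicate block, the repeated array under either label and each array left out. Spot pairs alone and dye orientations averaged first were added after seeing the data.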

Additional observations from a re-analysis of the deposited data

Results flagged for a closer look

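GstD2 with lufenuron read 0.37 on array 4, apart from the other 3 arrays, which lay between 0.05 and 0.10. It was the 1 value so far from its group among 49 groups of 4 arrays checked, where chance gives about 5%.

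The ratio with phenobarbital differed between larvae and adults, by the limma contrast, for GstD2 (0.98), GstD5 (1.33) and GstD6 (1.66). Each of these calls was lost with the values as deposited and with the dye orientations averaged first.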

How the results depend on the processing

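Counts of called members moved as follows. Calls over all genes were counted for the other centrings only, so the remaining counts cannot be set against a share of all genes. As deposited, without centring, 0 were called with dicyclanil, 0 with DDT and 0 between stages. Caffeine gave 2 with centring on all spots and 4 on control genes. With arrays scaled to the same spread, dicyclanil gave 4, lufenuron 1, DDT 0 and phenobarbital against the rest 2. Without a dye term, caffeine, dicyclanil and DDT gave 0 and the stage contrast 1; with a dye term per exposure, lufenuron gave 1 (GstD7). With array number as a replicate block, DDT gave 1, and no other count moved by over 1.5 times. The lower-numbered spots alone gave 2 for caffeine and 1 for DDT, and the higher-numbered spots 0 for dicyclanil, 3 for phenobarbital adults and 1 for DDT. With dye orientations averaged first, caffeine, dicyclanil, DDT and the stage contrast gave 0, phenobarbital adults 3 (GstD2, GstD4 and GstD5) and phenobarbital larvae 5. Leaving out 1 array gave 5 to 6 for phenobarbital larvae, 2 to 5 for phenobarbital adults, 1 to 2 for DDT, 0 to 1 for dicyclanil, 1 for caffeine and 2 to 3 between stages. Leaving out 1 exposure can leave a lone pool pair, so only differences are given. For phenobarbital against the rest, that of GstD2 ran from 2.55 to 4.41 and that of GstD5 from 0.48 to 2.46. For adults against larvae, that of GstD5 ran from -1.27 to 0.70 and that of GstD6 from -1.55 to 0.38. Among called values, the sign turned for GstD2 between stages (-1.32, equal spread) and GstD7 in phenobarbital adults (-0.39, higher-numbered spots). Values that were not called also changed sign, such as GstD7 with lufenuron (-0.62 with the ceiling value kept). Apart from the spot, sample or dye values each setting removes, the cause was not tested.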

Other observations

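The array deposited under both the DDT and the phenobarbital label of adult males was used in no comparison above. Turned to exposed over control, which is the same under either label, it read 0.64 for GstD2, -0.80 for GstD3, 0.31 for GstD4 and -0.03 for GstD5. It read 0.61 for GstD6, 1.59 for GstD7 and 0.85 for GstD8. GstD2 on the other 3 phenobarbital arrays lay between 3.65 and 4.02, and on the other 3 DDT arrays between 0.91 and 1.65. Cyp6a8 read 0.95 on it, against 3.53 to 4.76 on the phenobarbital arrays and -2.80 to 0.46 on the DDT arrays.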
